A study of Mus musculus with 4 samples.

Results

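The surface antigens studied here are those by which mouse blood stem cells and progenitors are usually sorted, encoded by 8 genes: Kit, Ly6a (the Sca-1 antigen), Cd34, Cd48, Slamf1 (CD150), Cd27, Procr (EPCR, CD201) and Esam. They were chosen by name, as antigens used in sorting gates, and all 8 had a row among the 13978 gene symbols of the count matrix. The study profiled host blood progenitors of mice with and without B-ALL, an acute lymphoblastic leukemia of B cells. In the B-ALL environment, wild-type CD45.1 hosts received 150000 tumor cells through the tail vein, taken from a lymph node of LN768, a mouse with leukemia whose genotype was Cd45.2+/+ with Ebf1+/- and Pax5+/-. In the PBS control, other wild-type CD45.1 hosts received phosphate-buffered saline. The groups are called B-ALL hosts and PBS hosts below. In both groups the marrow was taken 3 weeks later, and host cells that were KIT+, lineage-negative, CD45.1+ and CD45.2- were sorted for 10x Chromium 3' RNA sequencing. Ages and pooling of animals are not given in the sources used here, and the tumor cells came from 1 donor mouse.

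These antigens divide early blood cells into stages. KIT is the receptor of stem cell factor, and together with Sca-1 on lineage-negative cells it marks the compartment that holds stem cells and multipotent progenitors. Within it, CD150 without CD48 marks long-term stem cells, CD48 marks progenitors, and EPCR and ESAM are enriched on stem cells. CD34 and CD27 are low or absent on part of the long-term stem cells of adult mice and present on multipotent progenitors. A transcript is not a surface protein, so the combinations of transcripts described here are not the sorted populations themselves.

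Slamf1 and Cd48 belong to the SLAM receptor family and lie beside each other on chromosome 1, Cd48 at chr1:171682009-171705258 and Slamf1 at chr1:171767127-171801184, both on the plus strand (GRCm38). Between them lie 61868 bases with 0 protein-coding genes. Because the usual stem cell gate reads these neighbours in opposite ways, the 250 bases before their RefSeq starts (GRCm38.p6, plus strand) are shown, chr1:171681742-171681991 for Cd48 and chr1:171766882-171767131 for Slamf1. Capitals mark a RUNX motif.
Cd48: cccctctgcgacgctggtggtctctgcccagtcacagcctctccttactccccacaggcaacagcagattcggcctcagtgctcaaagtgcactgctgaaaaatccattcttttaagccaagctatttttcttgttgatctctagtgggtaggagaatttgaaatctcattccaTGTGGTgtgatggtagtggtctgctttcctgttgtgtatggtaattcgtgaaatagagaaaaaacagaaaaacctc
Slamf1: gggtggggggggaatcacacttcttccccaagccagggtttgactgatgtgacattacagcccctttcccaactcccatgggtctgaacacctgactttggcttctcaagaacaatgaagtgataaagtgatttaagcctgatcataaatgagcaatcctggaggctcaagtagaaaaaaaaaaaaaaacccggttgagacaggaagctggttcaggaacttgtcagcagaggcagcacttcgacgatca
On both strands 5 motifs were searched, namely AGATAA for GATA factors, CCGGAA for ETS factors, TGTGGT for RUNX factors, CAGCTG as an E-box and TTCNNNGAA for STAT factors. The Cd48 window held 1 RUNX match, at position -76 from the start, and 14.2% of the 27025 RefSeq promoters of this length held that motif. None of the 5 motifs matched in the Slamf1 window. The RefSeq table held 6 of the 8 genes, all except Ly6a and Esam. The Procr window (Procr, chr2:155751117-155755471) held 1 E-box match at -34, a motif found in 12.8% of promoters, and the windows of Kit, Cd34 and Cd27 held no match.

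Each group had 5882 cells. B-ALL hosts gave 76059014 unique molecular identifiers (UMIs), 357 to 56671 in a cell (median 10458), and PBS hosts gave 68391214, with 3070 to 48408 in a cell (median 10189). Under 3000 UMIs lay 179 cells of B-ALL hosts and 0 of PBS hosts. The groups shared 18 cell barcodes. Levels are CPM, the UMIs of a gene summed over the cells of a group relative to the library total after TMM, a correction for library composition. The cells were sorted as lineage-negative. The 6 measured B cell markers summed to 446 CPM in B-ALL hosts and 135 CPM in PBS hosts, and 15 cells of B-ALL hosts and 3 of PBS hosts had over 1% of their UMIs from globin genes or Igkc. Without those cells the counts of antigens past 1.5-fold were the same, and the part of B cell markers in the antigen levels was not tested. By the labels each group had 2 samples, but a cell's code shows its group alone, in which tm was taken to mean the tumor environment, so each group counted as 1 sample. No spread between mice could be measured, no p-value is given, and intervals are 95% intervals of counting error alone. A log2 fold puts B-ALL hosts over PBS hosts, and 1.5-fold was the size used to call a difference.

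Over all sorted cells, 4 of the 8 antigens were higher by over 1.5-fold in B-ALL hosts, Ly6a, Slamf1, Procr and Esam, against 12.6% of all genes. Kit alone was lower by over 1.5-fold, against 8.08% of genes. These shares of all genes also stand beside the counts of other gene lists over all cells below. Ly6a had 52.2 CPM in B-ALL hosts and 8.85 CPM in PBS hosts, a log2 fold of 2.56 (2.44 to 2.69). Esam had 26.4 CPM in B-ALL hosts and 4.43 CPM in PBS hosts, a log2 fold of 2.57 (2.40 to 2.75). Procr had 14.4 CPM in B-ALL hosts and 2.65 CPM in PBS hosts, a log2 fold of 2.44 (2.21 to 2.68). The intervals of these 3 folds overlapped. Slamf1 had 17.5 CPM in B-ALL hosts against 9.06 CPM in PBS hosts, a log2 fold of 0.95 (0.81 to 1.09). Kit had 206 CPM in B-ALL hosts and 370 CPM in PBS hosts, a log2 fold of -0.84 (-0.87 to -0.82), although the cells of both groups had been sorted for KIT protein. Cd34, Cd48 and Cd27 stayed within 1.5-fold. Cd34 had 309 CPM in B-ALL hosts and 352 in PBS hosts. Cd48 had 181 CPM in B-ALL hosts and 171 in PBS hosts, and Cd27 had 156 in B-ALL hosts and 126 in PBS hosts.

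The mix of cell types moved with these sums. Cells were assigned to types by clusters of the authors' map of the cells, a UMAP, and named from lists of other marker genes that hold none of the 8 antigens. The genes behind the map are not given in the sources used here and may include the antigens, so an antigen's order across types is a description. HSC-like cells, whose name came from stem cell markers that include Hlf, Fgd5 and Mecom, were 25.7% of cells (1513) in B-ALL hosts and 9.13% (537) in PBS hosts. With equal cell numbers drawn from both groups in each cluster (4278 per group), the log2 folds were 1.64 for Ly6a, 1.45 for Procr, 1.45 for Esam and 0.64 for Slamf1, all over 1.5-fold, and Kit was lower by over 1.5-fold. For Ly6a, Procr, Esam and Slamf1 these log2 folds were smaller than those of the undrawn cells. The interval of the Slamf1 log2 fold, 0.47 to 0.82, reached below 1.5-fold.

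**Figure D1:**
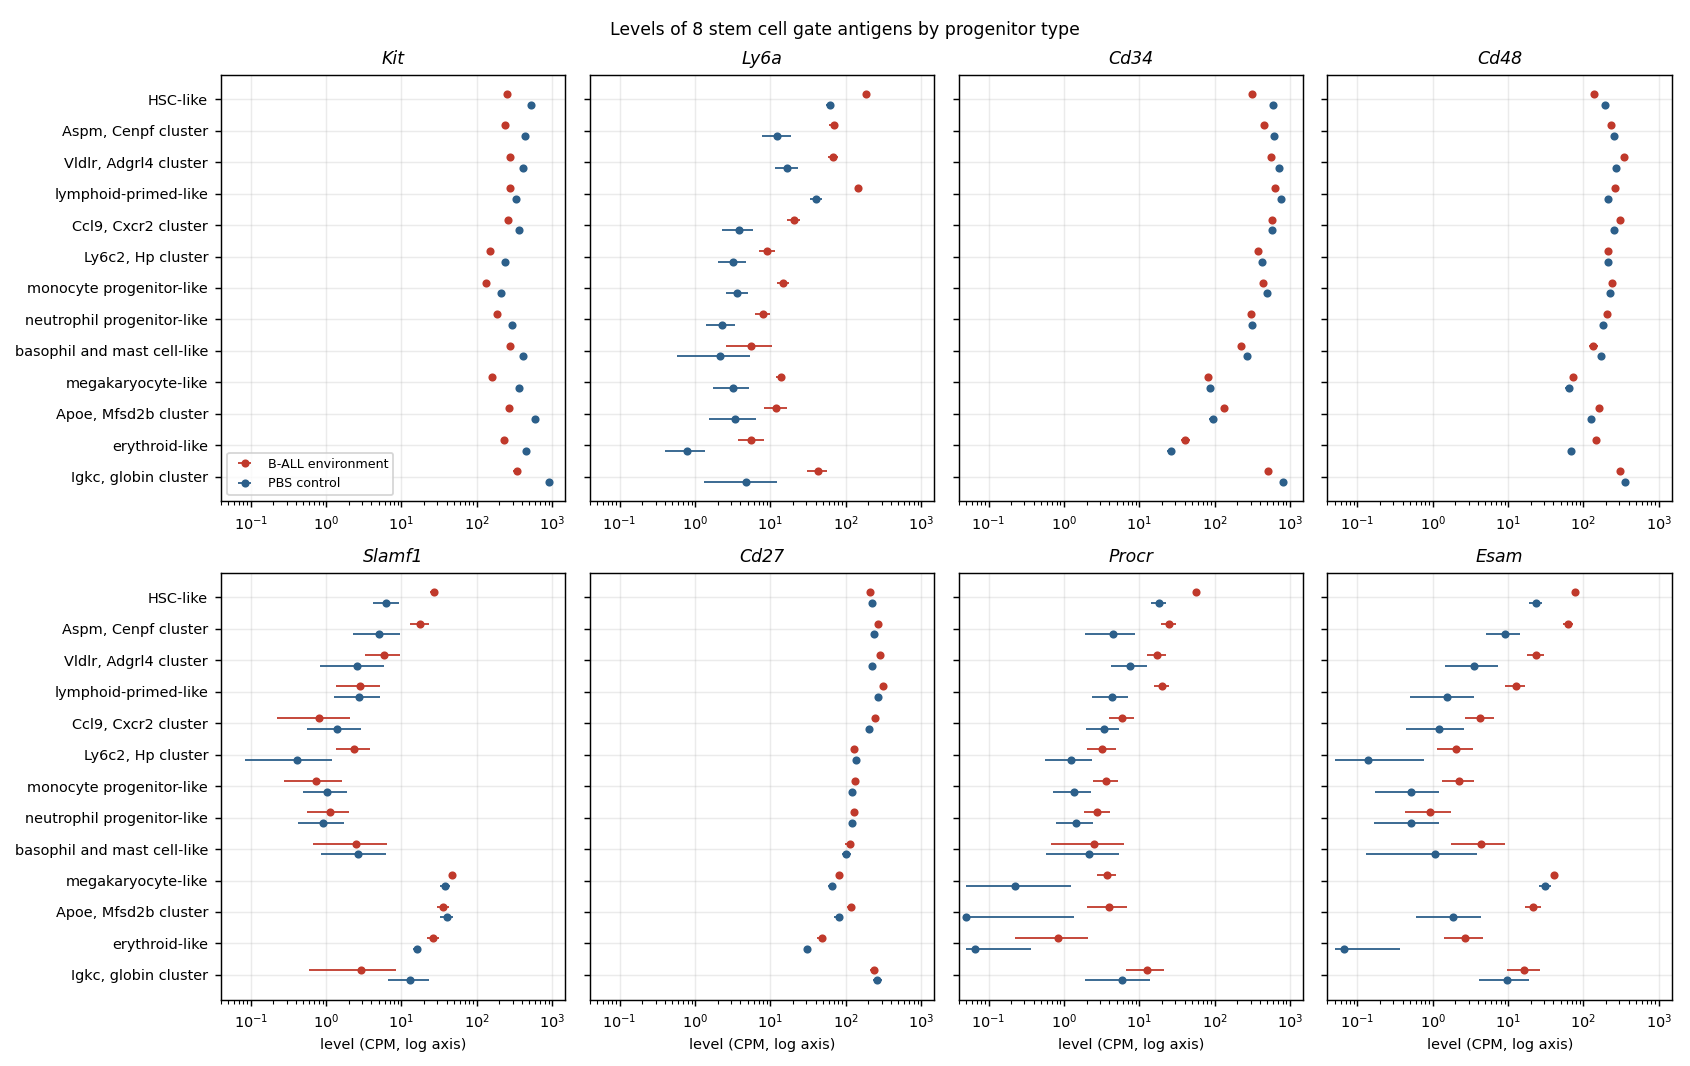
Levels of the 8 antigens (CPM on a log axis) in 13 types and clusters, with B-ALL hosts above PBS hosts in each row and 95% counting intervals as bars; levels under 0.05 CPM are drawn at 0.05. Kit lies lower and Ly6a higher in B-ALL hosts in every row, and Cd27 lies within 1.5-fold in 12 of the 13 rows.

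Kit (chr5:75574916-75656722, plus strand), the receptor tyrosine kinase for stem cell factor, was lower in B-ALL hosts in all 13 types and clusters with at least 30 cells in both groups. Each of the 13 intervals lay below 0, where 16.6% of all gene folds in these types and clusters had such an interval and 16.4% had one above 0. Of the 13 folds, 9 passed 1.5-fold, where 8.96% of all gene folds were lower by that much. Of the 104 values of the 8 antigens in them, 92 passed the filter on low counts. The log2 fold was -1.03 (-1.11 to -0.95) in HSC-like cells, with 255 CPM in B-ALL hosts and 520 CPM in PBS hosts. Megakaryocyte-like cells had 158 CPM in B-ALL hosts and 360 in PBS hosts, a log2 fold of -1.19. Erythroid-like cells had 230 CPM in B-ALL hosts and 448 in PBS hosts, a log2 fold of -0.96. Lymphoid-primed-like cells differed least, with 276 CPM in B-ALL hosts and 331 in PBS hosts, a log2 fold of -0.26 (-0.39 to -0.13). Clusters found from the marker genes alone gave log2 folds between -1.26 and -0.39 in 11 types.

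Of the other 33 measured genes of KIT signalling (its ligand, adaptors, kinases and phosphatases), 3 were higher by over 1.5-fold over all cells and 0 lower, with a median log2 fold of 0.16, beside 0.0018 over all genes. Pik3cd, a catalytic subunit of phosphatidylinositol 3-kinase, had 65.2 CPM in B-ALL hosts and 37.9 in PBS hosts. Plcg2, a phospholipase, had 87.3 CPM in B-ALL hosts and 55.8 in PBS hosts. Stat5b, a transcription factor activated by cytokine receptors, stayed within 1.5-fold at 41.7 CPM in B-ALL hosts and 56.6 in PBS hosts. Of 11 transcription factors that act on Kit, 1 was higher and 1 lower by over 1.5-fold over all cells. In HSC-like cells 0 were higher and 1 lower. Over all cells Erg, a stem cell factor of the ETS family, had 90.8 CPM in B-ALL hosts and 58.0 in PBS hosts. Gata1, the erythroid and megakaryocyte factor, had 36.5 in B-ALL hosts and 57.9 in PBS hosts. In HSC-like cells Erg stayed within 1.5-fold, with 158 CPM in B-ALL hosts and 136 in PBS hosts. Gata1 had 7.12 CPM in those of B-ALL hosts and 15.2 in those of PBS hosts.

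Ly6a (chr15:74994877-74998031, minus strand), a protein held to the membrane by a lipid anchor and known as interferon-inducible, was higher in B-ALL hosts by over 1.5-fold in 13 of 13 types and clusters, where 10.3% of all gene folds were higher by that much. The log2 folds ran between 1.39 and 3.16, and 12 of the 13 intervals lay above 0. The exception was in basophil and mast cell-like cells, which did not pass the filter on low counts and where 9 UMIs in B-ALL hosts stood against 4 in PBS hosts. Among the 13 were neutrophil progenitor-like cells, a type assumed below to lack Ly6a, with 77 UMIs in B-ALL hosts and 22 in PBS hosts. HSC-like cells had the highest level in both groups, 188 CPM in B-ALL hosts and 62.8 in PBS hosts, a log2 fold of 1.58 (1.40 to 1.77). Lymphoid-primed-like cells came next among the named types, with 145 CPM in B-ALL hosts and 40.4 in PBS hosts. In both groups every other named type lay under 15 CPM, and erythroid-like cells had 5.58 CPM in B-ALL hosts and 0.785 in PBS hosts. With clusters of the marker genes alone, the log2 fold in megakaryocyte-like cells was 0.21 (-0.46 to 0.92), against 2.12 (1.34 to 3.02) with the authors' map, so the higher level there depended on how the cells were assigned. Of 7 other measured genes of the Ly6 family, 3 were higher and 2 lower by over 1.5-fold over all cells. The 3 higher ones had few UMIs. Lynx1 had 92 in B-ALL hosts and 29 in PBS hosts, Ly6c1 had 47 and 26, and Ly6i had 36 and 17. The interval of the Ly6c1 log2 fold, -0.06 to 1.42, held 0. Lower were Ly6g5b, with 16 UMIs in B-ALL hosts and 29 in PBS hosts, and Ly6c2, a monocyte antigen. Ly6c2 had 132 CPM in B-ALL hosts and 313 in PBS hosts. Ly6e stayed within 1.5-fold, with 1038 CPM in B-ALL hosts and 829 in PBS hosts.

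Procr (the protein C receptor, on chromosome 2) was highest in HSC-like cells in both groups, like Ly6a. In HSC-like cells it had 55.9 CPM in B-ALL hosts and 18.2 in PBS hosts, a log2 fold of 1.62 (1.28 to 1.98). It was higher in all 12 types and clusters that gave a fold, and 9 of 13 intervals lay above 0. Its counts passed the low-count filter in 10 of the 13. In the cluster led by Apoe and Mfsd2b, 12 UMIs in B-ALL hosts stood against 0 in PBS hosts. In erythroid-like cells its counts were low, with 4 UMIs in B-ALL hosts and 1 in PBS hosts in all. Of 8 other measured genes of the protein C pathway, 5 were higher by over 1.5-fold over all cells and 0 lower. In HSC-like cells 3 of the 8 were higher and 1 lower, where 14.1% of all genes were higher and 7.74% lower. F2r, a thrombin receptor, had 58.8 CPM in B-ALL hosts and 38.4 in PBS hosts, and in HSC-like cells 34.9 in B-ALL hosts and 22.9 in PBS hosts. F2rl3, of the same list, had 17.7 CPM in B-ALL hosts and 9.33 in PBS hosts over all cells. In HSC-like cells F2rl3 stayed within 1.5-fold, with 28.6 CPM in B-ALL hosts and 25.7 in PBS hosts.

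Esam (chr9:37528078-37538319, plus strand), an adhesion molecule of endothelial cells, platelets and stem cells, was high in HSC-like and megakaryocyte-like cells of both groups and, in B-ALL hosts, in the mitotic cluster led by Aspm and Cenpf (62.5 CPM in B-ALL hosts and 8.97 in PBS hosts). HSC-like cells had 78.0 CPM in B-ALL hosts and 23.3 in PBS hosts, a log2 fold of 1.74 (1.44 to 2.05). Megakaryocyte-like cells had 40.5 CPM in B-ALL hosts and 31.0 in PBS hosts, a log2 fold of 0.38 (0.11 to 0.66), the smallest of the 13. The order of the named types therefore differed between groups, since HSC-like cells led in B-ALL hosts and megakaryocyte-like cells in PBS hosts. In PBS hosts the intervals of these levels, 19.0 to 28.4 CPM in HSC-like cells and 26.1 to 36.6 CPM in megakaryocyte-like cells, overlapped. Of 9 other measured genes of junctional adhesion, 4 were higher by over 1.5-fold over all cells and 0 lower.

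The stem cell antigens did not stand in the same proportion in every type. In B-ALL hosts Esam UMIs were 41.5% of Ly6a UMIs in HSC-like cells, 15.0% in monocyte progenitor-like cells, 11.7% in neutrophil progenitor-like cells and 8.69% in lymphoid-primed-like cells. Procr UMIs in B-ALL hosts were 29.8% of Ly6a UMIs in HSC-like cells, 24.2% in monocyte progenitor-like cells, 35.1% in neutrophil progenitor-like cells and 13.7% in lymphoid-primed-like cells. In B-ALL hosts Procr was thus nearer to its HSC-like proportion in both myeloid types than Esam was. Few UMIs lay behind this, 29 of Procr and 18 of Esam in monocyte progenitor-like cells. Neutrophil progenitor-like cells had 27 of Procr and 9 of Esam. In PBS hosts Procr was 29.0% and Esam 37.2% of Ly6a UMIs in HSC-like cells. There monocyte progenitor-like cells had 37.1% and 14.3%, the same order. Neutrophil progenitor-like cells of PBS hosts had 63.6% and 22.7%, so there Esam was the nearer. These shares in PBS hosts also rest on few UMIs. Monocyte progenitor-like cells had 13 of Procr, 5 of Esam and 35 of Ly6a. Neutrophil progenitor-like cells had 14 of Procr, 5 of Esam and 22 of Ly6a. No interval was computed for these proportions. The part of free RNA in the counts outside HSC-like cells was not tested.

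**Figure D2:**
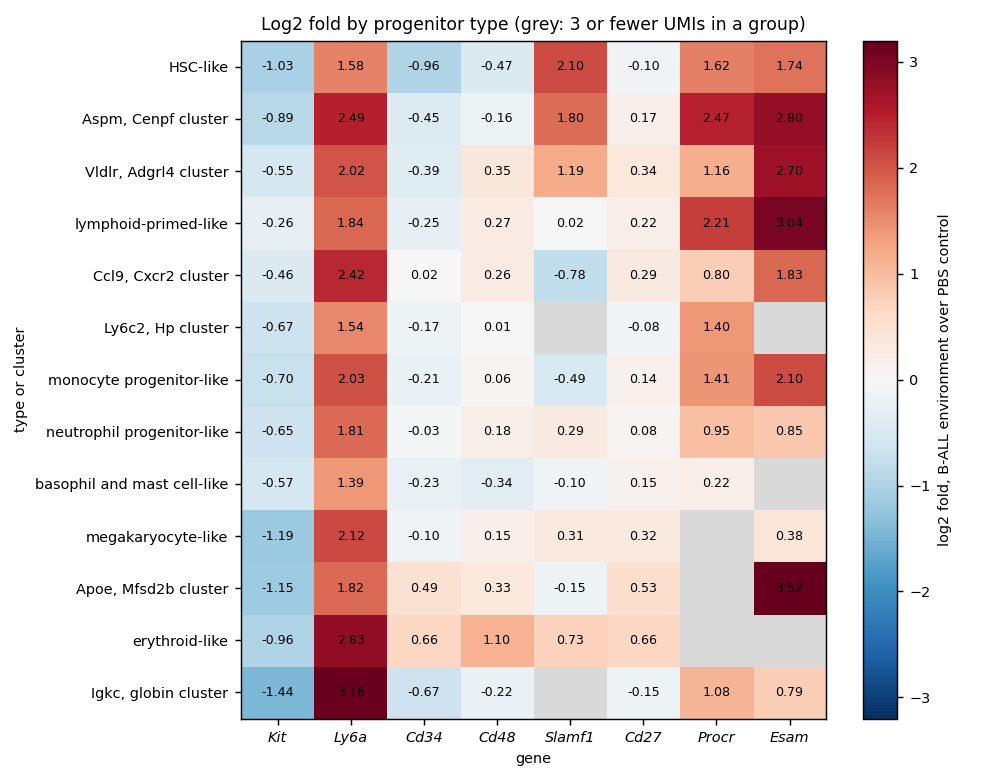
Log2 fold of each antigen in each type or cluster, B-ALL hosts over PBS hosts, with red for higher and blue for lower; grey cells had 3 or fewer UMIs in a group. The Kit column is negative and the Ly6a column positive in all 13 rows, and Cd34 runs between -0.96 in HSC-like cells and 0.66 in erythroid-like cells.

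Cd34 (chr1:194938819-194961279, plus strand), a sialomucin of progenitors, differed between groups in both directions. In HSC-like cells it was lower by over 1.5-fold, with 311 CPM in B-ALL hosts and 604 in PBS hosts, a log2 fold of -0.96 (-1.03 to -0.89). In erythroid-like cells it was higher by over 1.5-fold, with 41.1 CPM in B-ALL hosts and 26.0 in PBS hosts, a log2 fold of 0.66 (0.41 to 0.91), where 11.7% of genes were higher and 8.98% lower by that much. Within the erythroid-like cluster led by Car1 and Ermap (161 cells in B-ALL hosts and 692 in PBS hosts) it stayed within 1.5-fold, with 29.4 CPM in B-ALL hosts and 20.6 in PBS hosts, a log2 fold of 0.52 (0.15 to 0.87). In the cluster led by Csrp3 and Trib2 (175 cells in B-ALL hosts and 541 in PBS hosts) the log2 fold was 0.66 (0.29 to 1.02). Lymphoid-primed-like cells had 643 CPM in B-ALL hosts and 766 in PBS hosts. Of the 13 intervals, 2 lay above 0 and 8 below. The antisense gene Gm16897 overlaps Cd34 and had 36 UMIs in B-ALL hosts and 81 in PBS hosts, while Cd34 had 23793 in B-ALL hosts and 23755 in PBS hosts. Whether counting used the strand is not given in the sources used here. Of 10 other sialomucins and their partners, 3 were higher and 1 lower by over 1.5-fold over all cells. Podxl, podocalyxin, a relative of CD34, had 22.9 CPM in B-ALL hosts and 0.577 in PBS hosts, and in HSC-like cells 38.6 in B-ALL hosts and 3.27 in PBS hosts.

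Within the SLAM pair, HSC-like cells had more Slamf1 and less Cd48 in B-ALL hosts. Slamf1, a receptor that binds itself on other cells, had 26.9 CPM (348 UMIs) in B-ALL hosts and 6.30 CPM (27 UMIs) in PBS hosts, a log2 fold of 2.10 (1.53 to 2.72). In PBS hosts the Slamf1 level of HSC-like cells thus lay below the 9.06 CPM over all cells. With clusters of the marker genes alone it was 15.8 CPM. Cd48, the ligand of the SLAM receptor CD244, had 139 CPM in B-ALL hosts and 193 in PBS hosts, a log2 fold of -0.47 (-0.59 to -0.35), which did not pass 1.5-fold. Both sizes depended on how HSC-like cells were found. With clusters of the marker genes alone (1038 cells in B-ALL hosts and 235 in PBS hosts), the log2 fold of Slamf1 was 1.15 (0.58 to 1.78) and that of Cd48 was -0.94 (-1.17 to -0.70). With finer clusters of the map the log2 fold of Cd48 was -0.72. Under both of these clusterings Cd48 passed 1.5-fold.

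The SLAM pair also differed among the types. Slamf1 was highest in megakaryocyte-like cells in B-ALL hosts, with 46.5 CPM, against 37.5 CPM in those of PBS hosts, a log2 fold of 0.31 (0.06 to 0.56). In the cluster led by Apoe, Mfsd2b and Gata2 it had 35.7 CPM in B-ALL hosts and 39.7 in PBS hosts, a difference within counting error. Monocyte and neutrophil progenitor-like cells had under 1.5 CPM of Slamf1 in both groups. Cd48 was higher by over 1.5-fold in 1 type, erythroid-like cells, with 145 CPM in B-ALL hosts and 67.4 in PBS hosts, a log2 fold of 1.10 (0.96 to 1.24). This held in both erythroid-like clusters, with log2 folds of 1.24 (1.06 to 1.43) in the one led by Car1 and Ermap and 0.79 (0.57 to 1.01) in the one led by Csrp3 and Trib2. Of the 4 other measured SLAM receptors, 0 passed 1.5-fold over all cells. Cd244a, the receptor of CD48, had 18.3 CPM among HSC-like cells in B-ALL hosts and 39.2 in PBS hosts, a log2 fold of -1.10 (-1.39 to -0.81). Of 5 adaptors and phosphatases that act on these receptors, 0 were higher and 1 was lower by over 1.5-fold over all cells. The lower one fell short of the mean of 10 CPM asked of named genes. Fyn, Inpp5d, Ptpn6 and Ptpn11 stayed within 1.5-fold.

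Cd27 (chr6:125232622-125237010, minus strand), a receptor of the tumor necrosis factor family, differed least of the 8 antigens between HSC-like cells of the groups. These cells had 209 CPM in B-ALL hosts and 224 in PBS hosts, a log2 fold of -0.10 (-0.21 to 0.01). Lymphoid-primed-like cells had the highest level, 314 CPM in B-ALL hosts and 269 in PBS hosts, a log2 fold of 0.22 (0.09 to 0.35). Among the 13 types and clusters it passed 1.5-fold in the sum of erythroid-like cells alone, with 48.0 CPM in B-ALL hosts and 30.3 in PBS hosts, a log2 fold of 0.66 (0.43 to 0.89). Within each erythroid-like cluster it stayed within 1.5-fold, with a log2 fold of 0.46 (0.08 to 0.83) in the Car1 and Ermap cluster and 0.57 (0.26 to 0.87) in the Csrp3 and Trib2 cluster. Vamp1 overlaps Cd27 on the other strand and had 14.4 CPM in B-ALL hosts and 16.2 in PBS hosts over all cells. Of 7 other measured genes of the CD27 pathway, 2 were higher by over 1.5-fold over all cells and 0 lower. Nfkb2, a subunit of the noncanonical NF-kappaB pathway, had 14.9 CPM in B-ALL hosts and 8.05 in PBS hosts.

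In HSC-like cells as a whole, then, 4 of the 8 antigens were higher by over 1.5-fold, Ly6a, Slamf1, Procr and Esam, against 14.1% of genes, and 2 were lower, Kit and Cd34, against 7.74% of genes. HSC-like cells came from 3 clusters of the map, and the largest was not the same in both groups. The cluster led by Socs2 and Mecom had 573 cells in B-ALL hosts and 122 in PBS hosts, the cluster led by Hlf and the interferon-induced Iigp1 had 451 in B-ALL hosts and 185 in PBS hosts, and the cluster led by Gm5111 had 489 in B-ALL hosts and 230 in PBS hosts. Kit and Cd34 were lower, and Ly6a, Slamf1, Procr and Esam higher, by over 1.5-fold in each of the 3 clusters, where 12.9% of all gene folds were higher and 7.82% lower by that much. Ly6a was itself a leading gene of the Hlf and the Gm5111 cluster. The mean log2 enrichment of HSC markers was 1.83 in the Socs2 and Mecom cluster and 1.02 in the Hlf cluster. In the Gm5111 cluster, the largest in PBS hosts, it was 0.57, near the minimum of 0.5 for a name. In the Socs2 and Mecom cluster Cd48 was at its lowest, with 21.9 CPM in B-ALL hosts and 58.6 in PBS hosts, a log2 fold of -1.42 (-1.94 to -0.89). In the other HSC-like clusters Cd48 had 161 and 271 CPM in B-ALL hosts against 181 and 250 CPM in PBS hosts, with both intervals holding 0. The Cd48 levels of the Gm5111 cluster lay above those over all cells, 181 CPM in B-ALL hosts and 171 in PBS hosts. Slamf1 in the Socs2 and Mecom cluster had 46.2 CPM in B-ALL hosts and 24.2 in PBS hosts. In the Gm5111 cluster 44 Slamf1 UMIs in B-ALL hosts stood against 1 in PBS hosts.

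Other marker lists moved with the group within HSC-like cells. The 12 HSC markers summed to 1588 CPM in B-ALL hosts and 1309 in PBS hosts, with 8 of 12 higher by over 1.5-fold. The 11 measured neutrophil markers summed to 1020 CPM in B-ALL hosts and 2373 in PBS hosts, with 7 lower by over 1.5-fold and 1 at 0 in each group. The 12 monocyte markers summed to 56.9 CPM in B-ALL hosts and 155 in PBS hosts, and the 8 multipotent progenitor markers to 3880 in B-ALL hosts and 5472 in PBS hosts. Their part in the antigen levels was not tested. The antigens were also read in all cells by how many of the 12 HSC markers had a UMI in the cell, at 3000 UMIs per cell.

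**Figure D3:**
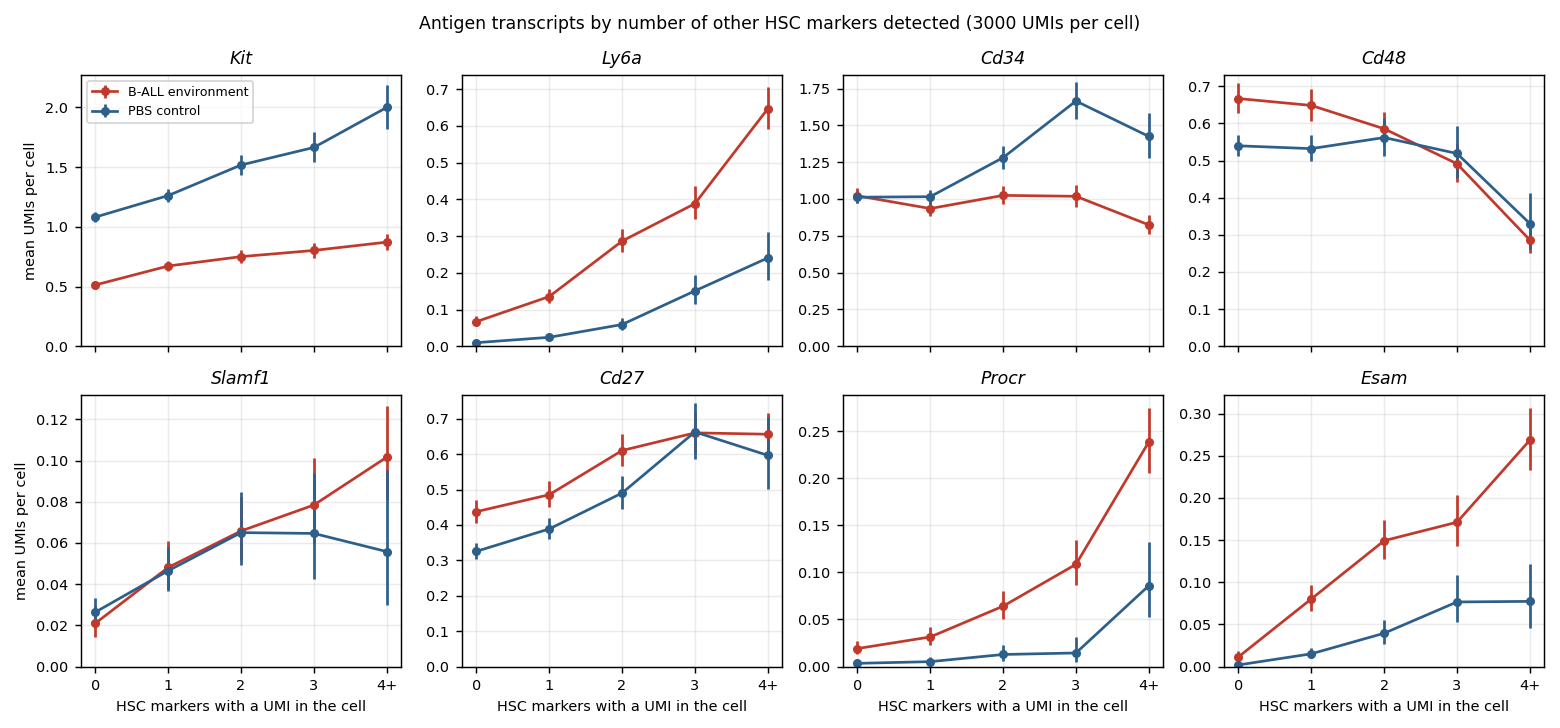
Mean UMIs per cell of each antigen against the number of the 12 HSC markers detected in the same cell, at 3000 UMIs per cell, with 95% counting intervals. Kit lies lower and Ly6a, Procr and Esam higher in B-ALL hosts at each step, while Slamf1 overlaps between the groups.

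At each step of this scale Kit was lower, and Ly6a, Procr and Esam higher, in B-ALL hosts. The scale itself moved with the group. Over all cells 10 of the 12 HSC markers were higher by over 1.5-fold in B-ALL hosts, against 12.6% of all genes. The same number of markers therefore need not mark the same stage in both groups. With no HSC marker detected (1568 cells in B-ALL hosts and 2649 in PBS hosts), Kit had 0.513 UMIs per cell in B-ALL hosts and 1.08 in PBS hosts. With 4 or more markers (797 cells in B-ALL hosts and 233 in PBS hosts), Kit had 0.872 UMIs per cell in B-ALL hosts and 2.00 in PBS hosts. Ly6a had 0.646 UMIs per cell in B-ALL hosts and 0.240 in PBS hosts at 4 or more markers, and Procr had 0.238 in B-ALL hosts and 0.0858 in PBS hosts. In all cells the Slamf1 intervals of the groups overlapped at each step. Slamf1 had 0.102 UMIs per cell (0.0807 to 0.126) in B-ALL hosts and 0.0558 (0.0297 to 0.0954) in PBS hosts at 4 or more markers. At 2 markers it had 0.0658 in B-ALL hosts and 0.0650 in PBS hosts. Within HSC-like cells Slamf1 had 0.0590 in B-ALL hosts and 0.0154 in PBS hosts at 2 markers. At 3 markers these cells had 0.0663 and 0.0260, and with no marker 0.0217 and 0.0357. There too the intervals of the groups overlapped. Cd48 was lowest at 4 or more markers in both groups, with 0.286 UMIs per cell in B-ALL hosts and 0.330 in PBS hosts, intervals that overlapped. In cells without HSC markers Cd34 had 1.02 UMIs per cell in B-ALL hosts and 1.01 in PBS hosts, and in cells with 4 or more markers 0.824 in B-ALL hosts and 1.42 in PBS hosts.

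Detection was compared after thinning each cell to 3000 UMIs, which left out the 179 shallower cells of B-ALL hosts. In HSC-like cells (1458 in B-ALL hosts and 537 in PBS hosts), Ly6a had a UMI in 43.3% (40.8 to 45.9) of cells in B-ALL hosts and 17.1% (14.0 to 20.6) in PBS hosts. Procr was detected in 18.5% of HSC-like cells in B-ALL hosts and 4.66% in PBS hosts, Esam in 23.7% in B-ALL hosts and 6.89% in PBS hosts, and Slamf1 in 6.58% in B-ALL hosts and 2.79% in PBS hosts. Kit was detected in 51.6% of HSC-like cells in B-ALL hosts and 77.7% in PBS hosts, Cd34 in 54.1% in B-ALL hosts and 78.4% in PBS hosts, and Cd48 in 26.7% in B-ALL hosts and 37.1% in PBS hosts. For these 7 antigens the exact intervals of the groups did not overlap, with 4 shares higher and 3 lower in B-ALL hosts, where by the same rule 5.65% of genes were higher and 5.04% lower. Cd27 was detected in 44.8% (42.2 to 47.4) of HSC-like cells in B-ALL hosts and 49.9% (45.6 to 54.2) in PBS hosts, with overlapping intervals. Without thinning, Ly6a was detected in 66.9% of HSC-like cells in B-ALL hosts and 31.5% in PBS hosts, and Kit in 74.6% in B-ALL hosts and 95.7% in PBS hosts.

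Neutrophil progenitor-like cells were taken as a background, on the assumption that they lack Ly6a, Procr and Esam. That assumption was not tested. At 3000 UMIs per cell Ly6a had a UMI in 2.17% of them in B-ALL hosts and 0.336% in PBS hosts, Procr in 1.09% in B-ALL hosts and 0.503% in PBS hosts, and Esam in 0% in B-ALL hosts and 0.336% in PBS hosts. Their median depth before thinning was 19857 UMIs in B-ALL hosts and 15751.5 in PBS hosts, and that of HSC-like cells was 7272 in B-ALL hosts and 7337 in PBS hosts. The shares in HSC-like cells lay above that background in both groups. Over all cells 5 antigens had a higher share beyond the intervals (Ly6a, Slamf1, Cd27, Procr and Esam) and 1 a lower share, Kit, at 46.2% in B-ALL hosts and 65.5% in PBS hosts. By the same rule 19.1% of genes had a higher and 15.7% a lower share. Without thinning, Kit had a UMI in 79.1% of all cells in B-ALL hosts and 92.9% in PBS hosts.

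**Figure D4:**
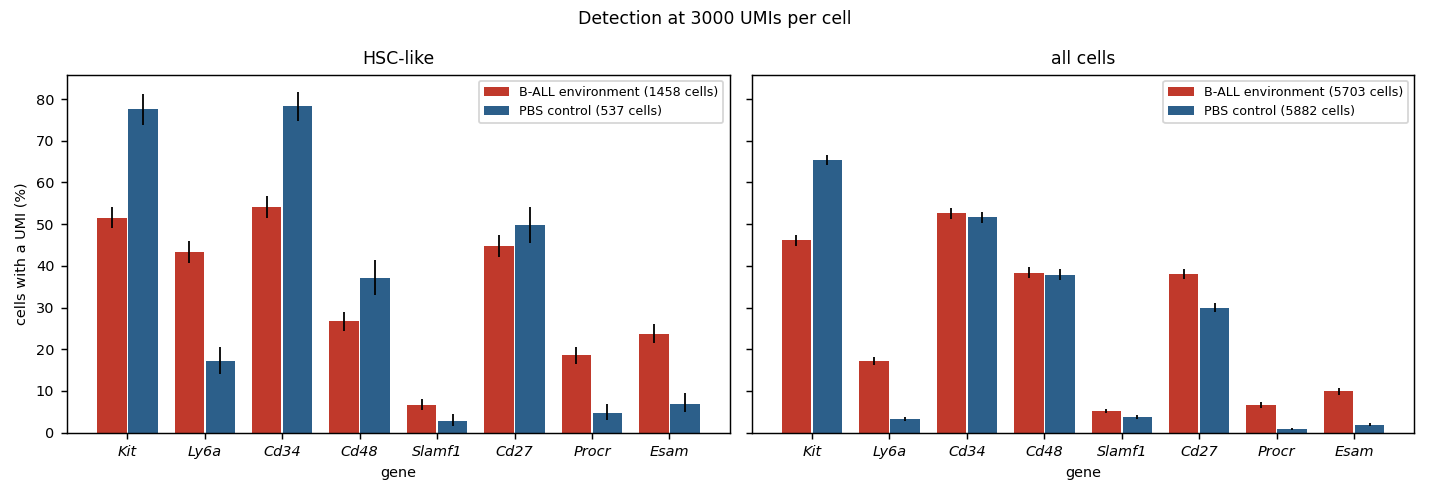
Share of cells with a UMI of each antigen at 3000 UMIs per cell, in HSC-like cells (left) and all cells (right), with exact 95% binomial intervals. In HSC-like cells the bars of Kit, Cd34 and Cd48 are lower in B-ALL hosts and those of Ly6a, Slamf1, Procr and Esam higher.

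Antigens were then combined as a sort would combine them. Cells with a UMI of Ly6a and Slamf1 and none of Cd48 were 42 of 5703 (0.737%, 0.531 to 0.994) in B-ALL hosts and 2 of 5882 (0.0340%, 0.0041 to 0.123) in PBS hosts at 3000 UMIs per cell. The ratio of these shares was 21.7 (5.63 to 185), an interval that rests on 2 cells of PBS hosts. At 6000 UMIs per cell the ratio was 11.7 (5.43 to 29.99), and without thinning it was 21.7 (10.3 to 54.9), with 152 cells in B-ALL hosts and 7 in PBS hosts. Within HSC-like cells the combination was met by 33 cells (2.26%) in B-ALL hosts and 1 cell (0.186%) in PBS hosts. Adding a UMI of Kit left 22 of the 42 cells in B-ALL hosts and both cells of PBS hosts. Procr and Slamf1 without Cd48 were found in 26 cells of B-ALL hosts and in 0 of 5882 cells of PBS hosts at 3000 UMIs, and without thinning in 87 cells of B-ALL hosts and 3 of PBS hosts. A count of 0 at 3000 UMIs allows a share of up to 0.0627% of cells with these UMIs by the exact interval. At this depth a missing UMI of any of these antigens does not show that the transcript was absent.

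The broader combination of Kit and Ly6a was met by 8.59% of cells in B-ALL hosts and 2.33% in PBS hosts, and within HSC-like cells by 22.4% (20.3 to 24.7) in B-ALL hosts and 13.2% (10.5 to 16.4) in PBS hosts. Ly6a without Cd34 was met by 19.8% (17.7 to 21.9) of HSC-like cells in B-ALL hosts and 4.28% (2.73 to 6.36) in PBS hosts. In lymphoid-primed-like cells, the type next in Ly6a level, Kit and Ly6a were both detected in 16.8% of cells in B-ALL hosts and 9.17% in PBS hosts. The Ly6a and Slamf1 combination without Cd48 was met there by 0 of 345 cells in B-ALL hosts and 1 of 349 in PBS hosts.

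**Figure D5:**
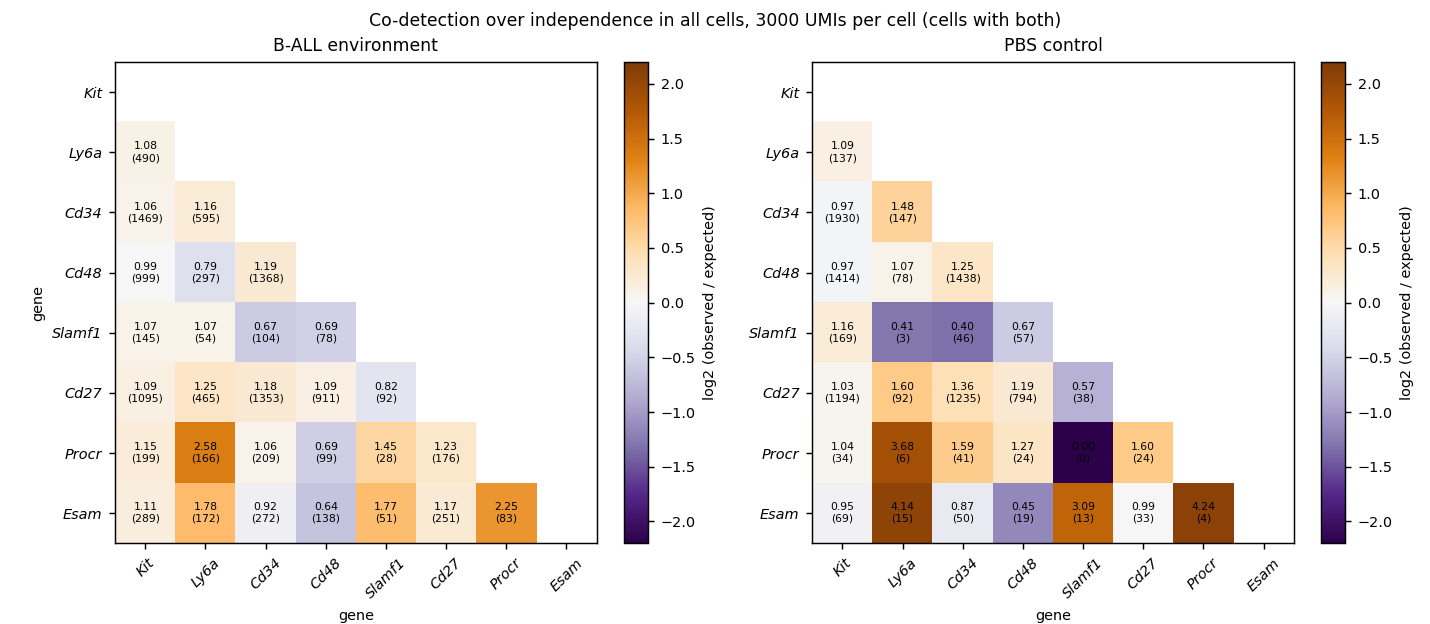
Observed over expected number of cells with both antigens of a pair, with all cells at 3000 UMIs each, in B-ALL hosts (left) and PBS hosts (right); the number of cells with both is in parentheses. Ly6a with Procr and Ly6a with Esam lie above 1 in both panels, and Cd34 with Slamf1 lies below 1.

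Co-detection was set against the number of cells expected if 2 antigens were found independently. Over all cells, 20 of the 28 pairs lay above 1 in B-ALL hosts and 17 in PBS hosts. Ly6a with Procr had a ratio of 2.58 (166 cells) in B-ALL hosts and 3.68 (6 cells) in PBS hosts, and Ly6a with Esam had 1.78 (172 cells) in B-ALL hosts and 4.14 (15 cells) in PBS hosts. Cd34 with Slamf1 was below 1 in both groups, at 0.67 in B-ALL hosts and 0.40 in PBS hosts, as was Cd48 with Slamf1, at 0.69 in B-ALL hosts and 0.67 in PBS hosts. Within HSC-like cells 20 of 28 pairs lay nearer 1 than over all cells in B-ALL hosts, and 21 of the 27 pairs with cells in PBS hosts. There Ly6a with Procr had 1.18 (138 cells) in B-ALL hosts and 1.40 (6 cells) in PBS hosts. Cd48 with Procr had 0.62 (45 cells) in B-ALL hosts and 0.86 (8 cells) in PBS hosts, and Cd48 with Slamf1 had 0.66 (17 cells) in B-ALL hosts and 0.72 (4 cells) in PBS hosts. Cd34 with Cd48 remained above 1 within HSC-like cells, at 1.29 in B-ALL hosts and 1.11 in PBS hosts. High ratios were not confined to pairs of Ly6a, Procr and Esam. Without thinning, all cells of B-ALL hosts had 1.84 (393 cells) for Slamf1 with Esam and 1.42 (635 cells) for Ly6a with Esam.

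Across the 26 sums of 13 types and clusters in both groups, the levels of Ly6a and Procr went together (Pearson r = 0.93 of log2(CPM + 10)), as did those of Cd34 and Cd27 (r = 0.92) and of Cd34 and Cd48 (r = 0.86). Slamf1 ran against Cd34 (r = -0.68) and against Cd48 (r = -0.65), and Kit was near 0 with each of the other 7, between -0.11 and 0.15. These are descriptions over sums that share libraries and groups, and the map may rest in part on the antigens. Among all genes that averaged 10 CPM or more, the pattern most like that of Ly6a was Myof (r = 0.96). Slamf1 was nearest to F2r (r = 0.94), Procr to Col4a2 (r = 0.93), Cd27 to Rassf2 (r = 0.95) and Kit to Tmem131l (r = 0.92).

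Of 47 other measured surface antigens used in progenitor sorting, 13 were higher and 5 lower by over 1.5-fold over all cells, with a median log2 fold of 0.22. Of all genes, 12.6% were higher and 8.08% lower by that much over all cells. In HSC-like cells 12 of 45 were higher and 13 lower, with a median of 0.04, against 14.1% and 7.74% of all genes. Selp, P-selectin, had 36.6 CPM in B-ALL hosts and 11.03 in PBS hosts over all cells, while in HSC-like cells it had 50.8 in B-ALL hosts and 41.3 in PBS hosts, within 1.5-fold. Itgb3, the integrin of platelets, had 18.0 CPM in B-ALL hosts and 7.12 in PBS hosts. Il1rl1, the interleukin-33 receptor, was lower, with 8.96 CPM in B-ALL hosts and 23.8 in PBS hosts.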

How the data were processed

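Host progenitors of 2 groups were measured by droplet RNA sequencing. The tools named in the submitters' processing notes are Cell Ranger 4 and Seurat 4.0.1, and the build is mm10. Values in the deposited matrix are UMI counts for each gene in each cell, which the authors left unnormalized. The deposited cell table adds the group, the total and UMAP coordinates, scores without a unit that the authors computed. How genes and cells were filtered is not given in the sources used here. With no replicate number on the cells, a group was 1 sample. The edgeR quasi-likelihood test, leaving out a sample and the replicate block could therefore not be run. The 8 antigens and all gene lists were chosen with earlier results of these data known.

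Leiden clusters were made on the UMAP with scanpy 1.11.5 and igraph 0.11.9 (30 neighbours, resolution 0.3, seed 1). Names came from the marker list of highest mean log2 enrichment (at least 0.5, with 10 CPM added), if at least 3 markers were in 10% of a cluster's cells and its 10 leading genes held no more markers of another list. Alternatives were resolution 0.6 and clusters of the marker genes alone (20 components, resolution 1). No doublet caller was run and no cell removed, and an alternative left out the 5% deepest cells. UMIs were summed and scaled by TMM after filterByExpr (edgeR 4.0.16, R 4.3.3), with DESeq2 1.42.0 size factors as an alternative. Folds have exact conditional and shares exact Clopper-Pearson 95% intervals (scipy 1.17.1), which cover counting error only. Scaling, folds and their intervals were tested on simulated sums, and thinning on a simulated matrix. Clustering, naming, combinations of antigens and co-detection were not tested in this way. Named were the 8 antigens, up to 4 genes of each list by size of fold with a mean of at least 10 CPM, SLAM and Ly6 genes with a UMI, and the 3 genes nearest each antigen, of which the first is given for 5 antigens. Some genes that the rule names are not reported here. Python 3.11.15 was used with numpy 2.4.6, scikit-learn 1.9.0, pandas 2.3.3 and matplotlib 3.10.9.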

Additional observations from a re-analysis of the deposited data

Results flagged for a closer look

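Cd34 differed between the groups in opposite directions in 2 types. Its log2 fold, B-ALL hosts over PBS hosts, was 0.6603 in erythroid-like cells and -0.9564 in HSC-like cells. With 1 sample per group the difference between these folds was not tested. With clusters of the marker genes alone the values were 0.61 (0.35 to 0.86) in erythroid-like cells and -1.14 (-1.26 to -1.02) in HSC-like cells.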

How the results depend on the processing

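The counts of antigens past 1.5-fold over all cells were the same with DESeq2 size factors, library totals alone, no filter on low counts, no cells under 3000 UMIs, no cells rich in globin or Igkc, and equal cells per cluster. In HSC-like cells they were the same under the first 5 of these, and 3 rather than 2 antigens were lower with the marker clusters and with resolution 0.6, since Cd48 then passed 1.5-fold. The cause was not tested. Over the named types, the counts were rerun with the marker clusters alone and stayed within 1.5 times. There 24 values were higher and 6 lower by over 1.5-fold with the map, and 23 and 8 with the marker clusters. The unnamed clusters were not part of these counts. The counts of antigens with a higher or lower share and of pairs above independence were rerun at 6000 UMIs per cell and stayed within 1.5 times. Leaving out the 5% deepest cells, chosen after seeing the data, kept each of these counts except those over the types, for which it was not run. Of 120 alternative values of single antigens, 17 moved beyond counting error and 0 changed sign beyond it. No paired analysis was possible because the cells carry no replicate number, and for the same reason no sample could be left out. Depth limits the Ly6a and Slamf1 combination without Cd48, which rests on 2 cells of PBS hosts at 3000 UMIs.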
